A study of Mus musculus with 6 samples.

Results

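The 38 genes described here are the working parts of the sterol and fatty acid synthesis programme controlled by the SREBP transcription factors. They were taken by symbol from the 56691 gene identifiers of the count table, by a fixed list of names, drawn up with earlier results of these data known. By role they fall into a sterol arm of 20 genes, a fatty acid arm of 13 genes and 5 regulators. All 38 passed the filter on low counts and were among the 16414 genes tested.

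The CTM group comprised 3 libraries from tumour cell clusters (micro-emboli) captured on a microfluidic chip out of the blood of mice with lung metastases of breast cancer. The 4T1 group comprised 3 libraries from 4T1, a single mouse mammary carcinoma line, whose titles give low adherence culture and whose medium was DMEM with 10% fetal bovine serum. The strain, age and number of the mice are not given in the labels, nor is any pooling of captured clusters, and the labels give no genetic change or drug in either group. Since nothing states that the libraries of a group are separate animals or cultures, p-values reflect only the spread among these libraries, and that may be technical.

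Total deposited counts ranged from 69178212 to 71595766 over the CTM libraries, against 69640898 to 70703739 over those of 4T1. Replicates 2 and 3 of each group lay close together, with a median absolute log2 difference over all tested genes of 0.10 in CTM, against 0.09 in 4T1. Replicate 1 differed from them by 0.20 and 0.21 in CTM, against 0.29 and 0.30 in 4T1, so 4T1 replicate 1 stood apart from the other libraries of its group. Of 8 carcinoma markers 7 were tested, and 1 was higher and 3 lower in CTM. The keratin gene Krt18 was at 960 to 1091 normalised CPM (a count as a share of the library total after TMM scaling) in CTM, against 839 to 950 in 4T1, and did not pass. Krt8 was at 533 to 571 CPM in CTM against 733 to 778 in 4T1, Krt7 at 83.3 to 97.0 in CTM against 244 to 349 in 4T1 and Cdh1, which encodes E-cadherin, at 13.1 to 15.2 in CTM against 27.8 to 113 in 4T1, and these 3 were lower. Krt19 was higher, at 35.3 to 36.7 CPM in CTM against 9.04 to 19.1 in 4T1. Epcam, an epithelial surface antigen gene, stood at 0.35 to 0.67 CPM in CTM, against 0.43 to 0.50 in 4T1.

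SREBP proteins are made as precursors in the membrane of the endoplasmic reticulum. When sterols are low, the escort protein SCAP carries them to the Golgi, where proteases release the active factor, and when sterols are ample, the INSIG proteins hold SCAP back. The Srebf1 products act mainly on fatty acid synthesis and the Srebf2 product mainly on cholesterol synthesis. Tumour cells commonly make fatty acids and cholesterol themselves, and both routes start from cytosolic acetyl-CoA and consume NADPH, while the oxidative steps of sterol synthesis and the desaturases also need molecular oxygen.

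The promoters of 31 of the 38 members are in the RefSeq table on GRCm38.p6, each running from 250 bases before to 50 bases after the annotated start. The 4 below are shown because Fasn had the smallest p of the members, Hmgcs1 is the textbook sterol-regulated synthase, and Insig1 and Insig2 moved in opposite directions. They lie at chr11:120824498-120824797 on the minus strand for Fasn, chr13:119690101-119690400 on the plus strand for Hmgcs1, chr5:28071162-28071461 on the plus strand for Insig1 and chr1:121332540-121332839 on the minus strand for the first of 3 listed starts of Insig2. Capitals mark the sterol response element TCACNCCAC, the E-box CACGTG and the CCAAT box bound by NF-Y, a usual partner of SREBP, each searched on both strands.
Fasn: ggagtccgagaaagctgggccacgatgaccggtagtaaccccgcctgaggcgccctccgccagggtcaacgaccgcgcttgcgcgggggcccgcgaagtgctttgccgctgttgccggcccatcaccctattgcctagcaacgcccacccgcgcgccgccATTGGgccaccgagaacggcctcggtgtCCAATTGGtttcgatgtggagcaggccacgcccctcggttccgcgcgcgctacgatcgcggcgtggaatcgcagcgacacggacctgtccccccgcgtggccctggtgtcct
Hmgcs1: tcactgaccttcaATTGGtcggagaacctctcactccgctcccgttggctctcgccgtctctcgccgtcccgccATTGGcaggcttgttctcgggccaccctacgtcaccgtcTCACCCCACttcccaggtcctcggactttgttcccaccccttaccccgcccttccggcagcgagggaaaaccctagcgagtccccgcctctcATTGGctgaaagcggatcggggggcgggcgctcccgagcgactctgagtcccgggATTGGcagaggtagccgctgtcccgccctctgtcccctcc
Insig1: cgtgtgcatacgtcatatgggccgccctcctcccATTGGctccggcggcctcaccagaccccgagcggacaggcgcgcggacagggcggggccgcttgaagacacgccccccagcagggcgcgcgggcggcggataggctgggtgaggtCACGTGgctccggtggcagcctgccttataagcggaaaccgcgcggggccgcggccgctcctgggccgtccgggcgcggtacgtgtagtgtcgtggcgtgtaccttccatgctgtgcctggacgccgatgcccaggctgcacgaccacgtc
Insig2: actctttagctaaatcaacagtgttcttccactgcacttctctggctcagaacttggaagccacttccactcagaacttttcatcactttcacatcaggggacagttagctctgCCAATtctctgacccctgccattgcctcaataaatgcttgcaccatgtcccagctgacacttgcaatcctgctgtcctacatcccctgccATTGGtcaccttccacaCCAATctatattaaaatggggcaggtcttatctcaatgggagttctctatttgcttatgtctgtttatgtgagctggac

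The sterol response element was found in 1 of the 31 member promoters, that of Hmgcs1, where it starts 137 bases before the annotated start, against 1.44% of the 27025 genes in the table. The E-box was found in 6 of the 31, those of Dhcr7, Elovl5, Hsd17b7, Insig1, Sc5d and Scap, or 19.4% against 8.09% of all genes. The CCAAT box was found in 25 of the 31, or 80.6% against 41.1% of all genes, which include many noncoding ones. Fasn had 3 CCAAT matches, the farthest starting 90 bases before its start and a pair of them overlapping, and Insig2 had 3 in the window shown. Insig1 carried the E-box 101 bases before its start and a single CCAAT match. These matches describe the letters only.

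The first steps of fatty acid synthesis fell in CTM. Fasn, the synthase that builds palmitate, was at 247, 224 and 244 normalised CPM in CTM against 634, 543 and 580 in 4T1. The groups did not overlap, and Fasn was 2.46-fold lower in CTM (log2 fold change -1.30, SE 0.09, edgeR adjusted p = 0.000477). Acaca, the acetyl-CoA carboxylase that supplies malonyl-CoA to Fasn, was at 48.9, 63.1 and 67.5 CPM in CTM against 140, 135 and 138 in 4T1. Its 3 values in 4T1 were nearly equal and all CTM values were below them, a 2.30-fold difference (edgeR adjusted p = 0.00136). Acly, the ATP citrate lyase that makes cytosolic acetyl-CoA from citrate, was at 112, 132 and 135 CPM in CTM against 212, 221 and 220 in 4T1. It was 1.72-fold lower in CTM (edgeR adjusted p = 0.00203).

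Acss2, which makes acetyl-CoA from acetate, was at 47.2, 48.0 and 48.0 CPM in CTM against 80.2, 46.5 and 51.4 in 4T1. It did not pass the test (edgeR adjusted p = 0.288). The values of 4T1 replicates 2 and 3 were near the CTM level, and that of replicate 1 was above it. Me1, the malic enzyme that yields cytosolic NADPH, was at 136, 134 and 140 CPM in CTM against 130, 72.4 and 74.2 in 4T1. The groups did not overlap, but 4T1 replicate 1 was just under the CTM values and the difference did not pass (log2 fold change 0.57, SE 0.23, edgeR adjusted p = 0.102). Without 4T1 replicate 1 it passed, at 1.86-fold higher in CTM (edgeR adjusted p = 0.00018).

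Among the 7 enzymes that lengthen and desaturate fatty acids, 2 fell, none rose and 5 did not pass, where 13.7% of all tested genes fell and 14.2% rose at an edgeR adjusted p below 0.05. Elovl6, the elongase that takes palmitate to stearate, was at 42.7, 53.8 and 53.9 CPM in CTM against 189, 104 and 103 in 4T1. It fell 2.64-fold (edgeR adjusted p = 0.00768), and without 4T1 replicate 1, where it was highest, the fall was 2.07-fold (edgeR adjusted p = 0.000793). Fads2, the desaturase of the first step from essential to long polyunsaturated fatty acids, was at 18.4, 27.4 and 30.2 CPM in CTM against 76.3, 79.0 and 84.3 in 4T1. Its 3.15-fold fall was the largest of all 17 called members (log2 fold change -1.66, SE 0.19, edgeR adjusted p = 0.00152). Fads1, its neighbour in the same route, was at 75.1, 71.1 and 75.8 CPM in CTM against 80.9, 99.5 and 98.3 in 4T1. All CTM values were below all 4T1 values, but the difference of -0.33 on the log2 scale did not pass (edgeR adjusted p = 0.0572). Without 4T1 replicate 1, which was the lowest of the 4T1 values here, Fads1 passed (log2 fold change -0.42, edgeR adjusted p = 0.00255).

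The stearoyl-CoA desaturases, which make oleate, had high levels in both groups. Scd2 was at 736, 810 and 832 CPM in CTM against 858, 698 and 709 in 4T1, and the groups overlapped (log2 fold change 0.07, SE 0.11, edgeR adjusted p = 0.662). Scd1 was at 374, 224 and 230 CPM in CTM against 316, 182 and 176 in 4T1. In both groups replicate 1 was highest, and Scd1 did not pass (log2 fold change 0.30, SE 0.29, edgeR adjusted p = 0.486). Reads of Scd1 and Scd2 may be shared between them and with Scd3, at 16.5 to 17.4 CPM in CTM against 12.2 to 16.1 in 4T1, and Scd4, at 6.01 to 7.71 CPM in CTM against 6.34 to 7.10 in 4T1. The elongases Elovl1 and Elovl5, which act on longer chains, did not pass (edgeR adjusted p = 0.187 and 0.159). Elovl1 averaged 31.1 ± 1.32 CPM in CTM against 37.6 ± 6.49 in 4T1, and Elovl5 59.0 ± 6.47 CPM in CTM against 78.8 ± 22.2 in 4T1 (SD, n = 3 in each group). Elovl1 shares 53 exon bases with Cdc20 on the other strand, a mitotic gene that was lower in CTM, so part of its count may belong there. Other members share more exon bases with another gene, among them Fdps (1124) and Tm7sf2 (532) on the same strand. Scap (985) and Hmgcs1 (557) do so on the other strand. The gene that overlaps Fdps, Gm43738, was at 0 CPM in every library.

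Lpin1, the phosphatidate phosphatase that feeds triglyceride synthesis, was the only called riser of the fatty acid arm. It was at 68.4, 62.6 and 67.0 CPM in CTM against 51.0, 32.9 and 32.9 in 4T1. All CTM values exceeded those of 4T1, a 1.69-fold difference (log2 fold change 0.76, edgeR adjusted p = 0.0216), and without 4T1 replicate 1 the log2 fold change was 1.00. The call was lost when any other single library was left out, and without a filter.

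**Figure D1:**
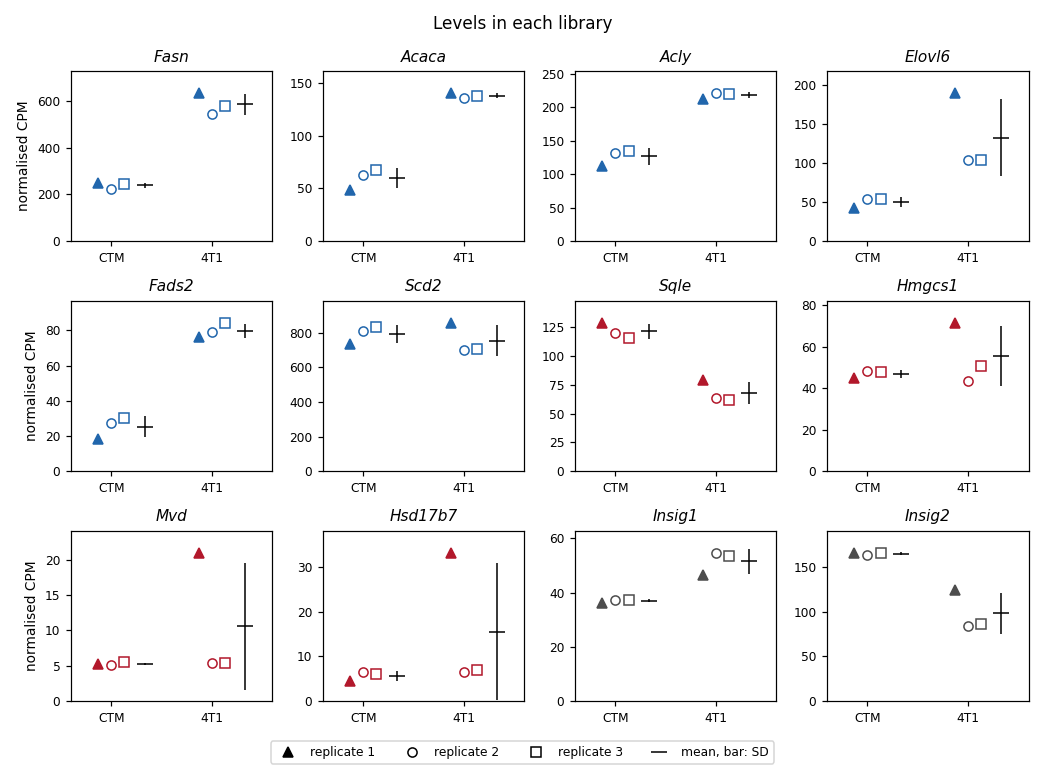
Normalised CPM of 12 member genes in each library, with CTM left of 4T1, symbols for the replicates and the mean with its SD beside them, in blue for the fatty acid arm, red for the sterol arm and grey for the regulators, on linear axes from 0. Fasn, Acaca, Acly and Fads2 were lower in every CTM library, whereas Mvd and Hsd17b7 were high in 4T1 replicate 1 alone, at 21.0 and 33.3 CPM.

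In the sterol arm 1 gene rose, 6 fell and 13 did not pass, where 14.2% of all genes rose and 13.7% fell. The 6 lower genes became 3 without CTM replicate 2 or without CTM replicate 3, and 0 with replicates 2 and 3 averaged. Of the 8 genes that lead from acetyl-CoA to the isoprenoid diphosphates, 4 fell. Acat2, the thiolase of the first step, was at 27.8, 31.1 and 35.4 CPM in CTM against 71.0, 59.6 and 59.5 in 4T1, without overlap and 2.02-fold lower (edgeR adjusted p = 0.00235). Its close paralogue Acat3, at 3.93 to 5.75 CPM in CTM against 5.18 to 7.78 in 4T1, may share reads with it. Fdps, the farnesyl diphosphate synthase, was at 16.3, 22.5 and 28.6 CPM in CTM against 79.6, 39.0 and 39.9 in 4T1. It fell 2.35-fold (edgeR adjusted p = 0.0311), but 4T1 replicate 1 was 2.02 times the mean of the other 4T1 libraries, and without it the fall was 1.76-fold (edgeR adjusted p = 0.0259).

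Mvk, the mevalonate kinase, and Idi1, the isopentenyl diphosphate isomerase, were also lower in CTM without overlap. Mvk was at 6.66, 9.07 and 9.37 CPM in CTM against 18.2, 14.4 and 11.2 in 4T1 (1.75-fold lower, edgeR adjusted p = 0.0364). Idi1 was at 11.4, 19.6 and 20.4 CPM in CTM against 37.5, 30.1 and 29.2 in 4T1 (1.88-fold lower, edgeR adjusted p = 0.0274). In both genes CTM replicate 1 was the lowest and 4T1 replicate 1 the highest library.

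The other genes of this stretch did not pass. Hmgcs1, the cytosolic HMG-CoA synthase whose promoter holds the sterol response element, was at 44.9, 48.2 and 48.1 CPM in CTM against 71.6, 43.6 and 51.0 in 4T1. The groups overlapped, and without 4T1 replicate 1 the log2 fold change was -0.01 in place of -0.24. Mvd, the decarboxylase that makes isopentenyl diphosphate, was at 5.20, 5.11 and 5.46 CPM in CTM against 21.0, 5.35 and 5.37 in 4T1. The 3 CTM values and 2 of the 4T1 values were nearly equal and 4T1 replicate 1 was 3.92 times the mean of the other 4T1 libraries, so the log2 fold change of -1.01 had an SE of 0.54, and it was -0.03 without that library. Pmvk, the phosphomevalonate kinase, averaged 23.6 ± 3.87 CPM in CTM against 27.5 ± 6.29 in 4T1 (SD, n = 3 in each group). Ggps1, which makes geranylgeranyl diphosphate for protein prenylation, averaged 21.0 ± 3.23 CPM in CTM against 18.9 ± 2.58 in 4T1 (SD, n = 3 in each group).

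From squalene to cholesterol, 11 genes split into 1 that rose, 1 that fell and 9 that did not pass, and neither count was above the background of 14.2% and 13.7%. Sqle, the squalene epoxidase and first oxygen-using step of the route, was at 129, 120 and 116 CPM in CTM against 78.8, 63.2 and 61.7 in 4T1. All CTM values were above all 4T1 values, a 1.79-fold rise (log2 fold change 0.84, SE 0.12, edgeR adjusted p = 0.00326), and it was 1.94-fold without 4T1 replicate 1. Dhcr7, the reductase of the last step, was at 20.3, 17.5 and 20.3 CPM in CTM against 38.3, 33.6 and 33.7 in 4T1, and fell 1.81-fold (edgeR adjusted p = 0.00286). Sqle and Dhcr7 thus moved in opposite directions within one route, and neither rested on 4T1 replicate 1, which was the highest of the 4T1 values in both.

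In the 8 genes between these steps, from Lss to Sc5d, 4T1 replicate 1 was the highest 4T1 library, at 1.06 (Ebp) to 4.96 (Hsd17b7) times the mean of the other 4T1 libraries. None passed with all libraries. Without both libraries numbered 1, Lss and Msmo1 passed as higher in CTM (log2 fold changes of 0.25 and 0.62) and Tm7sf2 and Ebp as lower (-0.44 and -0.27). In that fit 4239 of 16573 tested genes were higher and 4340 lower, so these counts were near the share over all genes. Hsd17b7, a sterol ketoreductase, was at 4.45, 6.41 and 6.10 CPM in CTM against 33.3, 6.49 and 6.92 in 4T1. Its replicate 1 was 4.96 times the mean of the other 4T1 libraries, and the log2 fold change of -1.46 (SE 0.64, edgeR adjusted p = 0.133) was -0.25 without it. Msmo1, the methylsterol monooxygenase, was at 14.7, 22.2 and 23.4 CPM in CTM against 40.8, 16.8 and 12.9 in 4T1. Its log2 fold change was -0.23 with all libraries and 0.44 without 4T1 replicate 1, and it passed in neither fit (edgeR adjusted p = 0.732 and 0.183).

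Cyp51, the lanosterol demethylase, averaged 17.2 ± 2.06 CPM in CTM against 23.6 ± 7.95 in 4T1 (SD, n = 3 in each group), with 32.8 in 4T1 replicate 1 against 19.0 in each of the others. Nsdhl, a sterol dehydrogenase, averaged 13.4 ± 1.47 CPM in CTM against 19.0 ± 4.94 in 4T1, and Tm7sf2, a sterol reductase, 5.80 ± 0.48 CPM in CTM against 8.35 ± 1.47 in 4T1 (SD, n = 3 in each group). Ebp, the sterol isomerase, averaged 43.2 ± 2.23 CPM in CTM against 51.8 ± 2.20 in 4T1 (SD, n = 3 in each group; edgeR adjusted p = 0.073). In these 4 genes all CTM values were below all 4T1 values, and none passed. Fdft1 (squalene synthase), Lss (lanosterol synthase) and Sc5d (a sterol desaturase) overlapped between the groups, with log2 fold changes of -0.24, 0.04 and -0.18. Fdft1 shares 774 exon bases with Ctsb on the other strand, an abundant protease gene at 1206 to 1641 CPM in CTM against 739 to 1015 in 4T1, so its count is uncertain.

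Stard4, which carries cholesterol through the cytosol, was at 23.1, 27.1 and 28.4 CPM in CTM against 49.2, 47.2 and 43.3 in 4T1. It fell 1.78-fold without overlap (edgeR adjusted p = 0.00328) and stayed 1.73-fold lower without 4T1 replicate 1.

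Of the 5 regulators 3 fell (Srebf1, Scap and Insig1), while Insig2 rose and Srebf2 did not pass. Among all tested genes 13.7% fell and 14.2% rose. When replicate 2 or replicate 3 of either group was left out, 1 regulator was lower and 0 higher. With replicates 2 and 3 averaged, 0 were lower and 0 higher. Srebf1, which encodes the factor of the fatty acid branch, was at 116, 145 and 143 CPM in CTM against 222, 191 and 196 in 4T1, a 1.51-fold fall (edgeR adjusted p = 0.0101). Scap, the escort gene, was at 63.7, 59.3 and 70.9 CPM in CTM against 88.7, 81.4 and 82.1 in 4T1, a 1.30-fold fall (edgeR adjusted p = 0.0285). Srebf2, the factor of the sterol branch, was at 152, 170 and 172 CPM in CTM against 244, 190 and 196 in 4T1. The groups did not overlap, but the log2 fold change of -0.35 did not pass (edgeR adjusted p = 0.069), and without 4T1 replicate 1 it was -0.23 and passed at 0.0492. These values are of RNA, and the cleaved, active form of the factors was not measured.

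Both INSIG genes encode proteins that retain SCAP, and Insig1 is itself a classic SREBP target. Insig1 was at 36.3, 37.2 and 37.4 CPM in CTM against 46.3, 54.7 and 53.4 in 4T1. It fell 1.39-fold (edgeR adjusted p = 0.0133), and 4T1 replicate 1 was the lowest of the 4T1 values, unlike in the sterol arm. Insig2 was at 166, 163 and 166 CPM in CTM against 125, 83.5 and 86.5 in 4T1. Its CTM values agreed closely and all lay above those of 4T1, a 1.68-fold rise (edgeR adjusted p = 0.0141) that was 1.94-fold without 4T1 replicate 1. The calls of Insig1 and Insig2 were each lost when replicate 2 or replicate 3 of either group was left out. Per kilobase of exon, Insig2 stood at 47.6 ± 0.44 CPM in CTM against 28.3 ± 6.65 in 4T1, and Insig1 at 12.0 ± 0.19 CPM in CTM against 16.6 ± 1.46 in 4T1 (SD, n = 3 in each group), so Insig2 was the more abundant transcript in both groups.

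Levels per kilobase also show which enzymes dominated the RNA. Scd2 was first of the 38 genes in both groups, at 145 ± 9.27 CPM per kilobase in CTM against 138 ± 16.4 in 4T1 (SD, n = 3 in each group). Fasn ranked 9 in CTM, at 21.8 ± 1.14 CPM per kilobase, and 2 in 4T1, at 53.5 ± 4.17 (SD, n = 3 in each group). Fads2 ranked 21 in CTM against 9 in 4T1, while Sqle ranked 8 in CTM against 20 in 4T1. Hsd17b7 and Tm7sf2, at 1.11 and 1.32 CPM per kilobase in CTM against 3.05 and 1.90 in 4T1, were among the 3 lowest in both groups. Exon lengths come from GENCODE M21, which need not be the gene models the authors counted on, and many neighbours in this order do not differ beyond their spread.

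**Figure D2:**
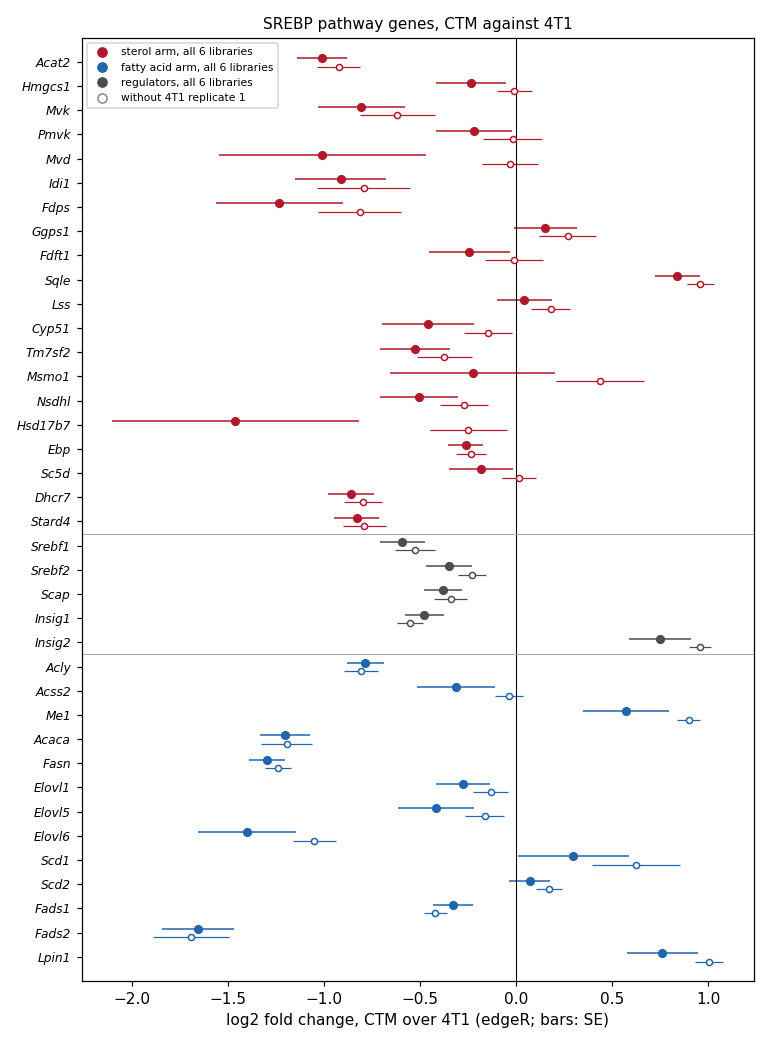
Log2 fold change of CTM over 4T1 with its SE for each of the 38 genes, grouped as sterol arm, regulators and fatty acid arm, from all 6 libraries (filled) and without 4T1 replicate 1 (open). Mvd, Hsd17b7 and Msmo1 have the widest bars and move furthest between the fits, while Fasn, Acaca, Acly, Fads2 and Dhcr7 hardly move.

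Over all 38 genes, 3 rose and 14 fell at an edgeR adjusted p below 0.05, where 14.2% of all tested genes rose and 13.7% fell. The share that rose was thus lower than the background and the share that fell higher, a description of a chosen list with no test. Between the arms the counts were 1 higher and 5 lower of 13 in the fatty acid arm and 1 higher and 6 lower of 20 in the sterol arm, with 1 higher and 3 lower among the 5 regulators. Median log2 fold changes were -0.33 in the fatty acid arm, -0.48 in the sterol arm and -0.38 in the regulators, beside -0.02 over all genes. All CTM values lay below all 4T1 values in 21 of the 38 genes and above them in 4, where 23.5% and 24.8% of all tested genes did so.

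Leaving out 4T1 replicate 1 kept all 17 calls, and Fads1 and Srebf2 were then also lower and Me1 higher, giving 4 higher and 16 lower, where 19.7% of all tested genes were higher and 19.7% lower. The median of the sterol arm was then -0.19 and that of the fatty acid arm -0.16. In 4T1, replicate 1 was the highest library in 20 of 20 sterol arm genes, 10 of 13 fatty acid arm genes and 4 of 5 regulators, where it was highest in 41.1% of all tested genes. It reached at least 1.5 times the mean of replicates 2 and 3 in 8 of 20 sterol arm genes, 6 of 13 fatty acid arm genes and none of the regulators, where 16.2% of all genes did.

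Within the libraries of one number the arms differed in size as well. Between the libraries numbered 1 the median log2 difference, CTM minus 4T1, was -0.96 in the sterol arm and -0.65 in the fatty acid arm. Between the means of those numbered 2 and 3 it was -0.12 in the sterol arm and -0.25 in the fatty acid arm. Fasn differed by -1.36 between the libraries numbered 1 and by -1.26 between the others, Acaca by -1.51 and -1.06, and Sqle by 0.70 and 0.91. Fdps differed by -2.25 and -0.63, Hsd17b7 by -2.77 and -0.09, and Msmo1 by -1.44 and 0.61.

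**Figure D3:**
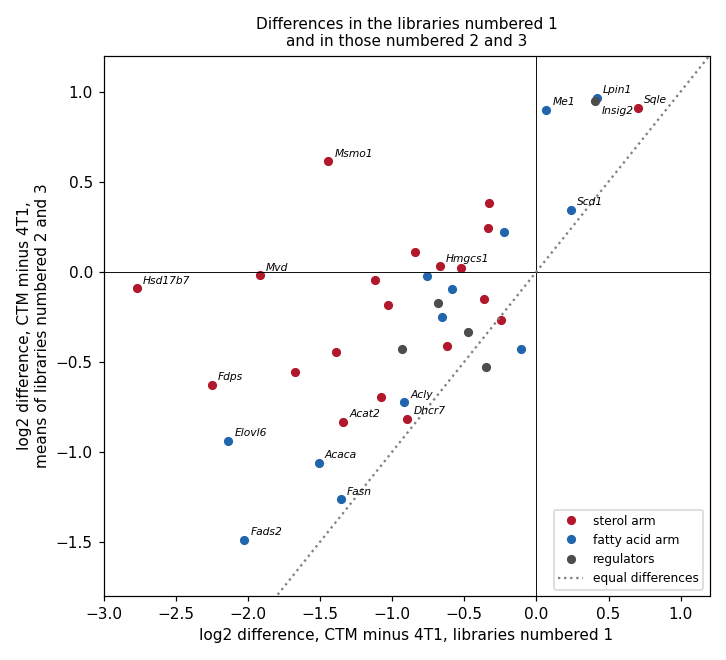
Each point is 1 of the 38 genes, with the log2 difference of CTM minus 4T1 between the libraries numbered 1 on the x axis and between the means of those numbered 2 and 3 on the y axis, both on the log2(normalised CPM + 0.5) scale. Fasn lies near the dotted line of equal differences, whereas Hsd17b7, Mvd and Msmo1 lie far left of it.

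The close agreement of replicates 2 and 3 bears on the calls. With their mean counted as 1 sample, which leaves 2 samples per group, Fasn, Acaca and Fads2 kept their call (edgeR adjusted p = 0.0355, 0.0447 and 0.0438) and the other 14 called members did not, where 1.2% of all genes were lower and 1.66% higher. Against a minimum change of 1.5-fold, 4 members passed as lower, Fasn, Acaca, Fads2 and Acat2, and none as higher, where 3.15% of all genes passed as lower and 3.3% as higher.

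**Figure D4:**
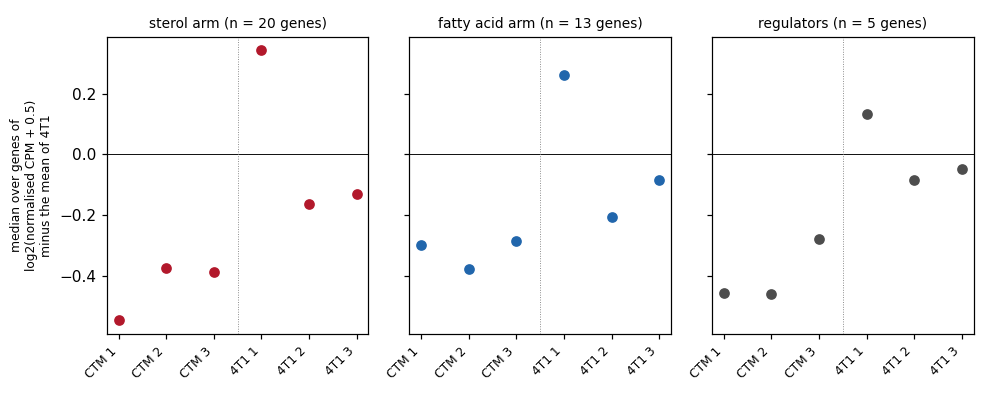
Median over the genes of each arm of the log2(normalised CPM + 0.5) level minus the gene's mean in 4T1, in each library, with CTM left of 4T1. The sterol arm stood at 0.34 in 4T1 replicate 1 and at -0.16 and -0.13 in the other 4T1 libraries, against -0.55, -0.37 and -0.39 in CTM.

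Other lipid genes, from lists drawn up beside the members, moved in part. Of 11 tested genes of sterol uptake, storage and transport 5 rose and 0 fell, where 14.2% of all genes rose and 13.7% fell, and the median of their log2 fold changes was 0.21. Npc2, the lysosomal cholesterol carrier, averaged 1634 ± 305 CPM in CTM against 703 ± 13.8 in 4T1 (SD, n = 3 in each group; edgeR adjusted p = 0.00137). Lipa, the lysosomal lipase that frees cholesterol from its esters, was 1.84-fold higher, Soat1, which esterifies cholesterol for storage, 1.78-fold higher, and Gramd1a, a sterol transfer protein gene, 1.77-fold higher. The fifth was Osbp, named after its values were seen. Without 4T1 replicate 1, 5 genes of this list were higher and 2 lower.

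Of 14 tested lipid droplet genes 3 rose and none fell, where 14.2% of all genes rose and 13.7% fell, and without 4T1 replicate 1 the counts were 4 and 1. Hilpda, a droplet protein known to be induced by low oxygen, averaged 105 ± 25.1 CPM in CTM against 25.5 ± 7.62 in 4T1, a 4.13-fold difference. Dgat2, the last enzyme of triglyceride synthesis, was 2.07-fold and the droplet coat gene Plin3 1.58-fold higher. Of 19 genes of fatty acid oxidation 3 fell, Etfb, Cpt1a and Cpt2 of the mitochondria being 1.66-fold, 1.38-fold and 1.33-fold lower (edgeR adjusted p from 0.0190 to 0.0491).

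Of 18 further lipogenic genes 2 rose and 4 fell, beside the same background. Fads3, beside Fads1 and Fads2 in the gene family, was at 19.0 ± 4.81 CPM in CTM against 59.4 ± 6.46 in 4T1 (SD, n = 3 in each group), 3.12-fold lower, close to the fall of Fads2. Mid1ip1, an activator of acetyl-CoA carboxylase, was 1.62-fold and Tecr, of the elongation cycle, 1.32-fold lower, while Hacd1, another gene of that cycle, was 2.34-fold higher. Of 12 SREBP processing genes 2 rose, Tmed10 and Ufd1, and 1 fell, Mbtps1, which encodes the Golgi protease that makes the first cut in SREBP and was 1.43-fold lower (edgeR adjusted p = 0.039). Of 7 genes of the sterol sensor LXR and its targets 1 rose, Nr1h2, and 1 fell, Lpcat3. The last 2 lists stood near the background of 14.2% and 13.7%.

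Markers of other cell types were measured beside these results. The summed level of 12 hepatocyte markers, from a tissue rich in these enzymes, was 857, 380 and 222 CPM in CTM against 996, 936 and 951 in 4T1. All 12 were detected and none was called, though the median of their log2 fold changes was -1.06 and the CTM libraries differed widely. Why libraries of 4T1, a mammary carcinoma line, held such transcripts was not tested. Alb, the albumin gene, led the list, at 322, 156 and 140 CPM in CTM against 384, 357 and 365 in 4T1. Over CTM replicates 1, 2 and 3, Fasn was at 247, 224 and 244 CPM against 543 to 634 in 4T1. Fads2 was at 18.4, 27.4 and 30.2 CPM, in that order, against 76.3 to 84.3 in 4T1. How these levels go with the hepatocyte sum was not tested. Of 8 adipocyte markers, Adipoq, Plin1, Lep and Cfd were at 0 in all 6 libraries, and the sum of the list was 0.98 to 3.62 CPM in CTM against 1.40 to 2.58 in 4T1.

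The sum of 10 leukocyte markers was 165 to 376 CPM in CTM against 35.9 to 77.0 in 4T1, most of it Cd68, a gene of lysosomes and macrophages, at 147 to 351 in CTM against 23.5 to 28.4 in 4T1. Csf1r, a macrophage receptor gene, was at no more than 0.54 CPM in CTM, against 32.6 in 4T1 replicate 1 and no more than 0.69 in the other 4T1 libraries. Ptprc, the pan-leukocyte phosphatase gene, was at no more than 1.34 CPM in CTM against 0.28 in 4T1. S100a9 and Lyz2 were at no more than 0.42 CPM in any library, and Itgam, Cd79a and Cd3e at no more than 0.52. Ighm was at 0, 3.07 and 3.13 CPM in CTM against no more than 0.14 in 4T1. S100a8 was at 12.1 to 23.8 CPM in CTM against 8.21 to 20.6 in 4T1. The platelet sum of 196 to 222 CPM in CTM against 178 to 320 in 4T1 was nearly all Itgb3. Of 8 platelet markers 5 were tested, and 2 were higher and 0 lower in CTM, where 14.2% of all genes rose and 13.7% fell. Itga2b was at 6.63 to 9.16 CPM in CTM against 2.77 to 3.18 in 4T1. Gp1ba was at 0.52 to 0.71 CPM in CTM against 0.06 to 0.17 in 4T1. Pf4 was at no more than 0.16 CPM in CTM against 0.24 in 4T1. Sums of 7 erythroid markers were 3.08 to 3.90 CPM in CTM against 2.55 to 9.03 in 4T1. Sums of 6 endothelial markers were 15.6 to 22.2 CPM in CTM against 30.6 to 33.9 in 4T1, and those of 6 fibroblast markers 251 to 266 CPM in CTM against 185 to 196 in 4T1. Most of the fibroblast sum was Pdgfra, at 232 to 249 CPM in CTM against 136 to 168 in 4T1. Pdgfrb, at 13.8 to 15.6 CPM in CTM against 23.4 to 43.7 in 4T1, and Col1a1, at 1.49 to 2.60 in CTM against 3.39 to 4.36 in 4T1, were lower. The part of these markers in the members' differences was not tested. In bulk libraries such as these, fewer cells of a type and less RNA per cell cannot be told apart.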

How the data were processed

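The 6 mouse libraries were made with SMART-Seq kits for very small RNA inputs, per the labels' protocols. Tools named in the submitters' processing notes are HISAT2 2.0.4, Bowtie 0.12.2 and edgeR, and the build is mm8, without roles. The counting tool, its annotation and its use of strand were not given in the sources used here. Estimated counts were deposited by the authors as whole numbers for 56691 Ensembl identifiers. Low counts pile up at multiples of 4 (956 genes at 4, 391 at 3 and 320 at 5 in 4T1 replicate 1), so counting error may be larger than the totals imply.

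Libraries were grouped by their label descriptions. Symbols came from a table of mouse gene names, which matched 52073 identifiers, and the 38 members were taken by symbol. After filterByExpr, 16414 genes were scaled by TMM and tested with the two-sided quasi-likelihood test of edgeR 4.0.16 in R 4.3.3 on all 6 libraries, with Benjamini-Hochberg adjustment over all genes and a threshold of 0.05. The coefficient of variation between libraries was 28.1%. A fold change comes from this fit, and its SE is the log2 fold change divided by the square root of F. The test was tested on simulated data with 1 common spread for all genes. It called 1 of 50 genes changed 1.5-fold and 7 of 50 changed 2-fold. Of 50 genes changed 4-fold it called 50, and 4 unchanged genes were called. At that spread, a change of 2-fold or less rarely passed. The spread of real genes differs from it, and members such as Scap, 1.30-fold lower in CTM, did pass. The simulation therefore does not give the power or error rate of the calls reported here. Alternatives were DESeq2 1.42.0, limma 3.58.1 voom with quality weights for the libraries, and other scalings and filters. Further ones were a replicate block, counts divided by 4, a 1.5-fold minimum, averaged close replicates and libraries left out. Gene lengths are unions of exons in GENCODE M21 (GRCm38), and promoters are from RefSeq on GRCm38.p6. All members are named, with up to 4 genes of each other lipid list described that passed with the smallest p; some results of these lists are not reported here. Members, lists and the split by role were chosen with earlier results of these data known.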

Additional observations from a re-analysis of the deposited data

How the results depend on the processing

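The number pairing of replicates was checked by the correlation of deviations from the group means across genes. For the libraries numbered 1, 2 and 3 it was 0.12, 0.07 and 0.04. Those numbered 1 correlated best with each other, while CTM replicate 2 correlated best with 4T1 replicate 3 (0.13). With 3 libraries per group, of which replicates 2 and 3 lay close together, these values cannot settle whether same-numbered libraries were paired. Not every library correlated best with its own number. With the replicate block, 14 of the 17 called members kept their call, sterol arm calls became 3 lower and fatty acid arm calls 2 higher. All 17 calls were kept with DESeq2, with its size factors in edgeR, with library totals and with the 5 CPM filter. They were also kept with limma voom, with counts divided by 4 and without both libraries numbered 1. The voom fit weighted each library by its quality. It gained the same further member calls as the fit without both libraries numbered 1.

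Without a filter 12 were kept, with 3 lower in the sterol arm and 0 higher in the fatty acid arm. Limma voom gave 4514 of 16414 genes higher and 4628 lower. Of the 38 members 9 were then higher, 4 of them in each arm, and 19 lower, with a sterol median of -0.16. Without both libraries numbered 1, 4239 of 16573 genes were higher and 4340 lower. Of the 38 members 9 were then higher, 4 in each arm, and 19 lower, with a sterol median of -0.13. With libraries 2 and 3 averaged there were 276 genes higher and 200 lower, and 0 members higher and 3 lower, all 3 in the fatty acid arm and 0 in the sterol arm or regulators. With the 1.5-fold minimum there were 541 and 517 genes, and 0 members higher and 4 lower, 3 in the fatty acid arm and 1 in the sterol arm. Library totals shifted the median of all genes to -0.11.

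With 1 library left out, between 1334 and 3323 genes were higher and between 1208 and 3326 lower, as were 1 to 4 members higher and 9 to 16 lower. The sterol arm had 1 higher and 3 to 6 lower, the fatty acid arm 0 to 2 higher and 5 to 6 lower, and the regulators 0 to 1 higher and 1 to 4 lower. The lowest counts of members came without CTM replicate 2 or 3, each with 9 lower and 1 higher, the highest without 4T1 replicate 1. Calls of Fdps, Idi1, Mvk, Scap, Insig1, Insig2 and Lpin1 were lost in at least 1 of these fits, those of the other 10 in none. Medians ran from -0.60 to -0.19 in the sterol arm, -0.46 to -0.16 in the fatty acid arm and -0.43 to -0.34 in the regulators.

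No called member changed sign in any alternative. Members that did not pass changed sign as follows. With voom and without both libraries numbered 1, in that order, the log2 fold change of Hmgcs1 was 0.0077 and 0.026, of Pmvk 0.068 and 0.11 and of Msmo1 0.53 and 0.62, Msmo1 then passing in both. Sc5d was at 0.024 without both libraries numbered 1. With library totals Lss was at -0.038 and Scd2 at -0.011, and with libraries 2 and 3 averaged they were at -0.054 and -0.0016. Over the fits that left out 1 library, Lss ran from -0.046 to 0.18, Msmo1 from -0.52 to 0.44 and Sc5d from -0.30 to 0.014. The cause was not tested.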
